A study of Mus with 6 samples.

Results

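The Myc, Max and Mxd network is a set of transcription factors that compete for the same dimerization partner and the same DNA sites. It was taken here as the 8 genes Myc, Max, Mxd1, Mxd3, Mxd4, Mxi1 (the gene of MXD2), Mnt and Mga, taken by symbol. All 8 were among the 10995 protein-coding genes listed in the deposited expression table, and 7 of them were among the 8816 genes that passed the filter for testing, a mean of at least 1 FPKM (fragments per kilobase, scaled for the reads of each library). The 8th, Mxd3, fell below that filter. The libraries came from spleen CD4+ T cells of WT (unmodified) mice. The cells were naive when they were placed in culture, and were activated for 3 days with anti-CD3 at 5 μg/mL, anti-CD28 at 2 μg/mL and IL-2 at 100 U/mL. They received either anti–VEGF-B, an antibody against vascular endothelial growth factor B, or normal goat IgG as control, each at 1 μg/mL, with 3 RNA-Seq libraries per treatment. The comparison asks how the transcripts of activated helper T cells differ when VEGF-B in the culture is blocked. The labels do not say whether the 3 libraries of a group came from separate mice or cultures, and the p-values rest only on the spread between these libraries. For each gene that spread was moderated, which means pulled toward the spread of other tested genes at a similar level.

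MYC binds DNA as a dimer with MAX, at sequences called E-boxes, and recruits coactivators that raise transcription. MAX also pairs with the MXD proteins and with MNT, which occupy the same sites and recruit SIN3 and histone deacetylases to lower transcription, and with MGA, which belongs to a variant Polycomb complex. In T cells, MYC is induced by antigen receptor signalling and is known for driving amino acid uptake, ribosome production and growth in the days after activation, while several MXD genes are known for higher expression in resting or differentiating cells.

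Some facts of the whole table touch every value below. FPKM carry no read depth, so the error given comes from the moderated spread between libraries. The FPKM of a library summed to between 260058 and 276622. Of the genes tested, 71.2% had a lower mean log2(FPKM + 1) with anti–VEGF-B, and the median log2 fold change was -0.15. The first principal component, with 65.1% of the variance, set the groups apart, and IgG replicate 2 (score 27.2) lay far from the other IgG libraries (8.76 and 11.8). On the other side, anti–VEGF-B replicate 3 (-21.0) lay beyond the other anti–VEGF-B libraries (-13.1 and -13.5). All 10 CD4+ T cell markers were present, with summed levels of 695 to 743 FPKM with anti–VEGF-B and 688 to 783 FPKM with IgG. The sum hides differences between them. Cd5 (56.3 to 69.9 against 71.9 to 93.4 FPKM) and Cd3e (9.60 to 12.9 against 14.25 to 18.6 FPKM) were lower with anti–VEGF-B without overlap. The groups overlapped for the other markers of this list. The CD8 marker pair summed to 3.32 to 4.69 and 2.29 to 4.21 FPKM, nearly all of it Cd8b1, with Cd8a at no more than 0.182 FPKM. The only B cell marker listed of 6 was at 0.798 to 1.33 and 0.665 to 1.34 FPKM, and none of the 5 erythroid markers was listed. Of 4 dendritic cell and 4 NK cell markers, 1 each was listed, at no more than 0.372 and 0.203 FPKM. The 5 myeloid markers listed of 6 summed to 11.7 to 13.3 FPKM with anti–VEGF-B and to 12.8 to 29.0 FPKM with IgG, highest in IgG replicate 3. Their part in the results was not tested. In these bulk samples, fewer cells of a kind and less RNA per cell cannot be told apart.

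Among the members tested, Mxd4 rose with anti–VEGF-B, and it alone had an adjusted p under 0.05 in limma with Benjamini-Hochberg adjustment over all genes tested. The background for this count is 4.87% of all tested genes called as higher. No member was called as lower, where 23.8% of all tested genes were. At an unadjusted p under 0.05, 1 member was lower (Myc), against 35.2% of all tested genes, and 3 were higher (Mxd4, Mxi1 and Mga), against 7.96%. Without moderation of the variance, 0 members were called in either direction, among 12 genes called in all. The 3 values of each group did not overlap for Myc, which was lower with anti–VEGF-B, and for Max, Mxi1 and Mxd4, which were higher. Over all genes tested, such a separation was found for 38.5% in the lower and 10.5% in the higher direction.

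**Figure D1:**
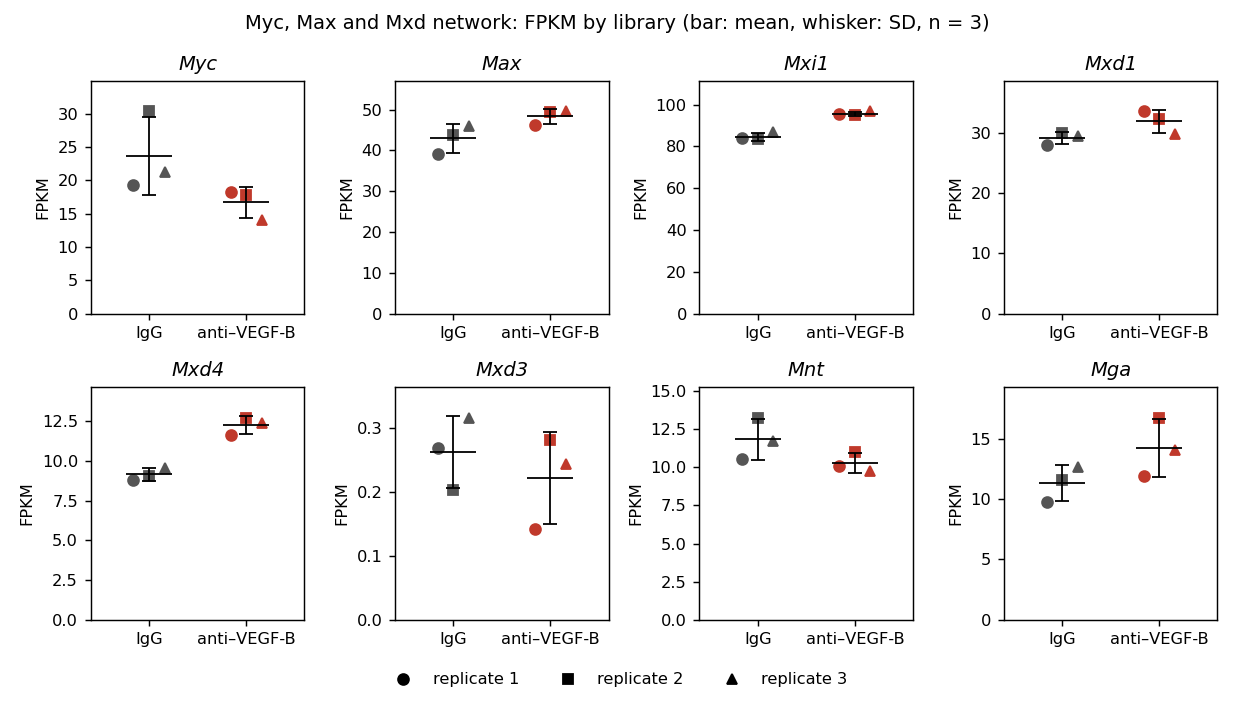
FPKM (vertical axes, from 0, a scale of its own for each gene) of the 8 network genes in each library, with the mean as a bar and the SD as a whisker (n = 3 per group). The anti–VEGF-B values lie below all IgG values for Myc, above all IgG values for Max, Mxi1 and Mxd4, and among them for Mxd1, Mxd3, Mnt and Mga.

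Myc encodes the activating member of the network (GRCm38, chr15:61985391-61990374, plus strand). It was at 18.3, 17.7 and 14.0 FPKM in anti–VEGF-B replicates 1, 2 and 3, and at 19.3, 30.3 and 21.3 FPKM in IgG replicates 1, 2 and 3. The highest anti–VEGF-B value and the lowest IgG value were 1.05 FPKM apart, with IgG replicate 2 the highest and anti–VEGF-B replicate 3 the lowest, the same libraries that lay at the ends of the first principal component. The mean was 16.7 ± 2.33 FPKM under anti–VEGF-B against 23.6 ± 5.86 FPKM under IgG (SD, n = 3), a ratio of 0.705. On the log2(FPKM + 1) scale, which understates the change of genes with low levels, the difference was -0.46 (SE 0.162, 95% interval -0.83 to -0.099), with an adjusted p of 0.0581 in limma. Relative to the median of all tested genes, it was -0.31. With no moderation of the variance, Myc had an SE of 0.222 and a 95% interval of -1.08 to 0.15 (adjusted p = 0.208 in the unmoderated linear model). Without IgG replicate 2, the IgG mean was 20.3 ± 1.37 FPKM and the log2 difference was -0.28 (adjusted p = 0.147 in limma). Without IgG replicate 1, the difference was -0.59 and passed the threshold (adjusted p = 0.0358 in limma).

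Max encodes the partner that MYC, the MXD proteins, MNT and MGA share (chr12:76937269-76962201, minus strand). It was at 46.3, 49.4 and 49.6 FPKM with anti–VEGF-B and at 39.1, 43.8 and 46.0 FPKM with IgG. All 3 anti–VEGF-B libraries were above the IgG libraries, but the closest values lay only 0.234 FPKM apart. The means of 48.4 ± 1.85 and 43.0 ± 3.53 FPKM (SD, n = 3) gave a log2 difference of 0.17 (95% interval -0.012 to 0.35, adjusted p = 0.137 in limma).

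Mxi1 encodes MXD2, a MAX partner that recruits SIN3 and opposes MYC (chr19:53310506-53375810, plus strand). It had the highest level in the network, with 95.3, 95.0 and 96.7 FPKM under anti–VEGF-B and 83.9, 83.3 and 86.8 FPKM under IgG. The groups were 8.18 FPKM apart at their closest values, and the replicates of a group were close to each other, with a coefficient of variation of 0.985% for anti–VEGF-B and 2.20% for IgG. The means were 95.7 ± 0.942 and 84.6 ± 1.86 FPKM (SD, n = 3), a log2 difference of 0.17 (SE 0.0643, 95% interval 0.030 to 0.32) that did not pass the threshold (adjusted p = 0.0684 in limma). This SE is moderated, and with no moderation it was 0.0197 (adjusted p = 0.0693 in the unmoderated linear model).

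Mxd4 encodes a further SIN3-recruiting partner of MAX (chr5:34173883-34187720, minus strand). It was at 11.7, 12.7 and 12.4 FPKM with anti–VEGF-B and at 8.82, 9.07 and 9.60 FPKM with IgG. Every anti–VEGF-B library was above every IgG library, with 2.08 FPKM between the closest values. The means rose from 9.16 ± 0.396 to 12.3 ± 0.550 FPKM (SD, n = 3), by 34.1%. The log2 difference was 0.39 (SE 0.0828, 95% interval 0.20 to 0.57, adjusted p = 0.0129 in limma), and 0.54 relative to the median of all tested genes. The call was lost without anti–VEGF-B replicate 3, with a log2 difference of 0.38 (adjusted p = 0.0516 in limma), and without moderation of the variance (adjusted p = 0.0695). It was kept in 12 of the 14 alternative settings.

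Mxd1 encodes the founding member of the MXD family (chr6:86647042-86669161, minus strand). It was at 33.5, 32.3 and 29.7 FPKM with anti–VEGF-B and at 28.0, 29.9 and 29.5 FPKM with IgG. Anti–VEGF-B replicate 3 fell among the IgG values. The means of 31.8 ± 1.93 and 29.1 ± 1.01 FPKM (SD, n = 3) differed by 0.12 on the log2 scale (95% interval -0.048 to 0.30, adjusted p = 0.234 in limma). Mxd3, the MXD gene known for expression in proliferating cells, was close to 0 (chr13:55325168-55329823, minus strand). Its values were 0.142, 0.281 and 0.245 FPKM with anti–VEGF-B and 0.268, 0.203 and 0.317 FPKM with IgG, and the groups overlapped. In the fit without a filter on low values, the log2 difference of Mxd3 was -0.047 (95% interval -0.22 to 0.13, adjusted p = 0.666 in limma). The Mxd3 row overlapped that of Prelid1 on the opposite strand, and the library kit keeps strand, but the sources used here do not give the strand setting of the quantification. In the mouse RefSeq table (GRCm38.p6, matched by symbol for 8 of 8 members), Mxd1 and Mxi1 also overlapped a long noncoding RNA gene each.

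Mnt encodes the broadly expressed repressor of the network (chr11:74830920-74845725, plus strand). It was at 10.1, 11.0 and 9.76 FPKM with anti–VEGF-B and at 10.6, 13.3 and 11.7 FPKM with IgG. The groups overlapped, and IgG replicate 2 was again the highest. The means were 10.3 ± 0.666 and 11.8 ± 1.35 FPKM (SD, n = 3), with a log2 difference of -0.18 (95% interval -0.41 to 0.044, adjusted p = 0.189 in limma), near the median of all genes. Mga encodes the largest protein of the network, with a T-box beside its MAX-binding domain (chr2:119897228-119969581, plus strand). It was at 11.9, 16.7 and 14.0 FPKM with anti–VEGF-B and at 9.77, 11.6 and 12.7 FPKM with IgG. Anti–VEGF-B replicate 1 lay below IgG replicate 3, so that the groups overlapped, and the spread was wide in both. The means of 14.2 ± 2.42 and 11.3 ± 1.46 FPKM (SD, n = 3) differed by 0.30 on the log2 scale (95% interval 0.0014 to 0.60, adjusted p = 0.114 in limma). With no moderation of the variance, the interval was -0.16 to 0.76 (adjusted p = 0.257 in the unmoderated linear model).

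FPKM are scaled for length, so the levels of different genes can be set side by side. With IgG the order of mean FPKM was Mxi1, Max, Mxd1, Myc, Mnt, Mga, Mxd4 and Mxd3. In this order the values of Mxd1 and Myc overlapped, as did those of Mnt and Mga, and all other neighbours were apart. With anti–VEGF-B the order was Mxi1, Max, Mxd1, Myc, Mga, Mxd4, Mnt and Mxd3. Here Mxd1 lay above Myc in every library (29.7 to 33.5 against 14.0 to 18.3 FPKM), Myc overlapped with Mga, and Mga with Mxd4. Mnt, 5th with IgG, was 7th with anti–VEGF-B, below Mxd4 with no overlap (9.76 to 11.0 against 11.7 to 12.7 FPKM). Myc was the most variable of the members above 1 FPKM in the IgG libraries, with a coefficient of variation of 24.8%.

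Ratios within a library do not depend on the scaling of that library by a common factor. The ratio of Myc to Max FPKM was 0.395, 0.359 and 0.282 under anti–VEGF-B and 0.495, 0.693 and 0.462 under IgG, so that each anti–VEGF-B value was below each IgG value. Its mean was 0.346 ± 0.0577 against 0.550 ± 0.125 (SD, n = 3). The summed FPKM of the repressor genes Mxd1, Mxd3, Mxd4, Mxi1 and Mnt was 151, 151 and 149 with anti–VEGF-B and 131, 136 and 138 with IgG. The groups did not overlap, and Mxi1 held 63.7% and 62.7% of this sum on average. The ratio of Myc to this sum was 0.121, 0.117 and 0.0940 with anti–VEGF-B and 0.147, 0.223 and 0.154 with IgG, again without overlap. In other words, there were 9.14 ± 1.31 repressor FPKM for each FPKM of Myc under anti–VEGF-B against 5.92 ± 1.26 under IgG (SD, n = 3). Mxi1 and the repressor sum kept nearly the same proportion to Max. Not every single repressor did, as the group mean changed by a factor of 1.13 for Max, 1.34 for Mxd4 and 0.868 for Mnt. The ratio of Mxi1 to Max was 1.98 ± 0.0721 and 1.98 ± 0.144, and the ratio of the repressor sum to Max was 3.11 ± 0.132 and 3.15 ± 0.188 (SD, n = 3). Both overlapped between the groups. Of the summed FPKM of all 8 genes, Myc made up 7.26% ± 0.968 with anti–VEGF-B and 11.1% ± 2.29 with IgG. These ratios combine members whose values are given above and carry no test. Myc was lower, and Max and the repressor sum higher, without overlap, so the separation of both Myc ratios follows from those values.

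**Figure D2:**
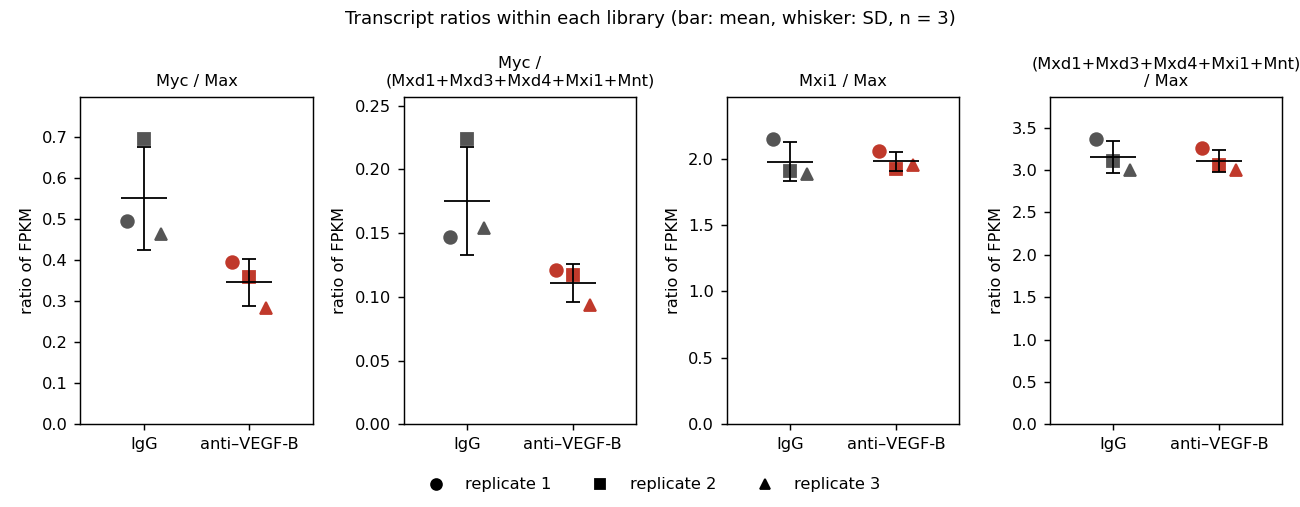
Ratios of FPKM within each library (vertical axes, from 0), with the mean as a bar and the SD as a whisker (n = 3 per group). Myc relative to Max and Myc relative to the repressor sum do not overlap between the groups, with all anti–VEGF-B points below the IgG points and IgG replicate 2 the highest, while Mxi1 and the repressor sum relative to Max overlap between the groups.

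Since most genes of the table were lower with anti–VEGF-B, the members were also followed under scalings between libraries. Quantile and cyclic loess normalization take out most of this shift, and median centring turns it the other way. Quantile normalization, cyclic loess normalization and median centring gave a median over all tested genes of 0.0077, 0.0019 and 0.049 on the log2 scale. The called genes then split into 913 lower and 880 higher, 938 and 852, and 807 and 1365, against 2099 lower and 429 higher with no scaling between libraries. Mxd4 was called under each scaling, with log2 differences of 0.54, 0.52 and 0.59. Mga passed the threshold under each of them too, at 0.44, 0.42 and 0.50 (adjusted p = 0.0457, 0.0475 and 0.0242 in limma). Max (0.37, adjusted p = 0.0177), Mxi1 (0.38, adjusted p = 0.0162) and Mxd1 (0.33, adjusted p = 0.0180) passed it after median centring, and not after quantile or cyclic loess normalization. Myc stayed below 0, at -0.38, -0.38 and -0.26, and passed the threshold under none of these scalings (adjusted p = 0.106, 0.0949 and 0.172 in limma). Mnt was at -0.041 and -0.048 and turned to 0.018 after median centring.

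**Figure D3:**
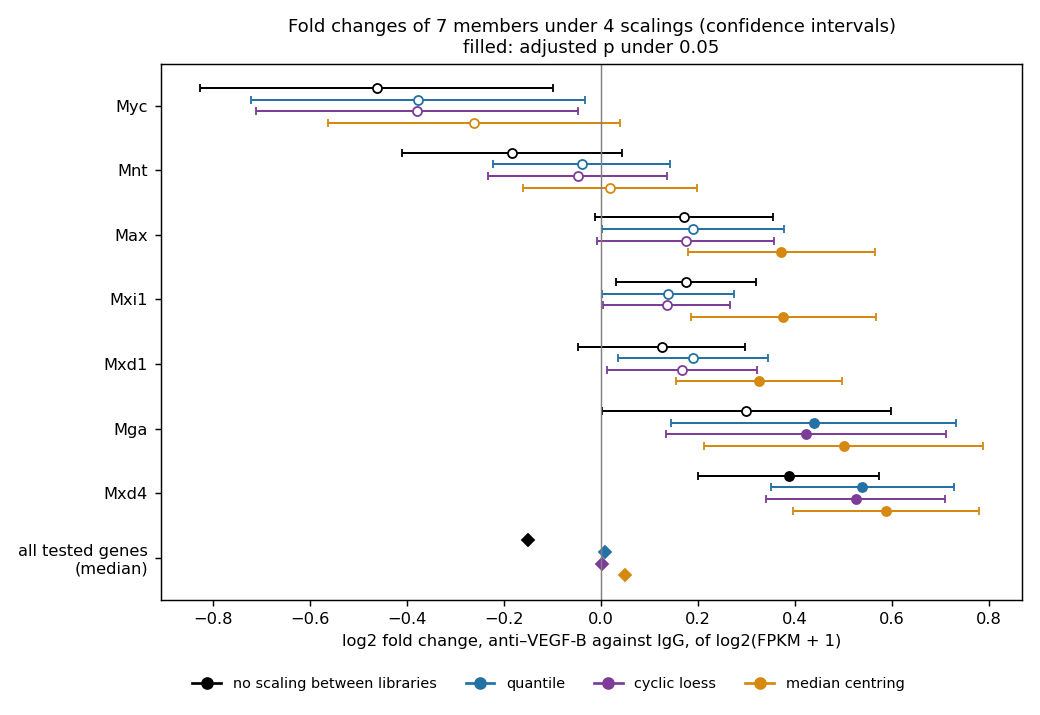
Log2 fold change of anti–VEGF-B against IgG (horizontal axis) with its 95% interval for the 7 members tested, under 4 scalings (colours), with the median of all tested genes as diamonds. Filled points mark an adjusted p under 0.05. Mxd4 is filled in every scaling, Mga in the 3 that scale between libraries, Max, Mxi1 and Mxd1 after median centring, and Myc and Mnt in none.

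Leaving out each library in turn moved the members by different amounts. Myc ranged from -0.59 to -0.28 on the log2 scale and was called in 1 of the 6 fits, that without IgG replicate 1. Mxd4 ranged from 0.36 to 0.42 and was called in 5 of 6. Mxi1 ranged only from 0.16 to 0.19 and was called in none, with adjusted p between 0.111 and 0.188 in limma. Mga ranged from 0.18 without anti–VEGF-B replicate 2, its highest library, to 0.41 without anti–VEGF-B replicate 1, and was called in none. Max had its smallest difference, 0.11, without IgG replicate 1, and Mnt was closest to 0, at -0.10, without IgG replicate 2. Max, Mxd1 (0.088 to 0.17) and Mnt were called in none of the 6 fits.

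**Figure D4:**
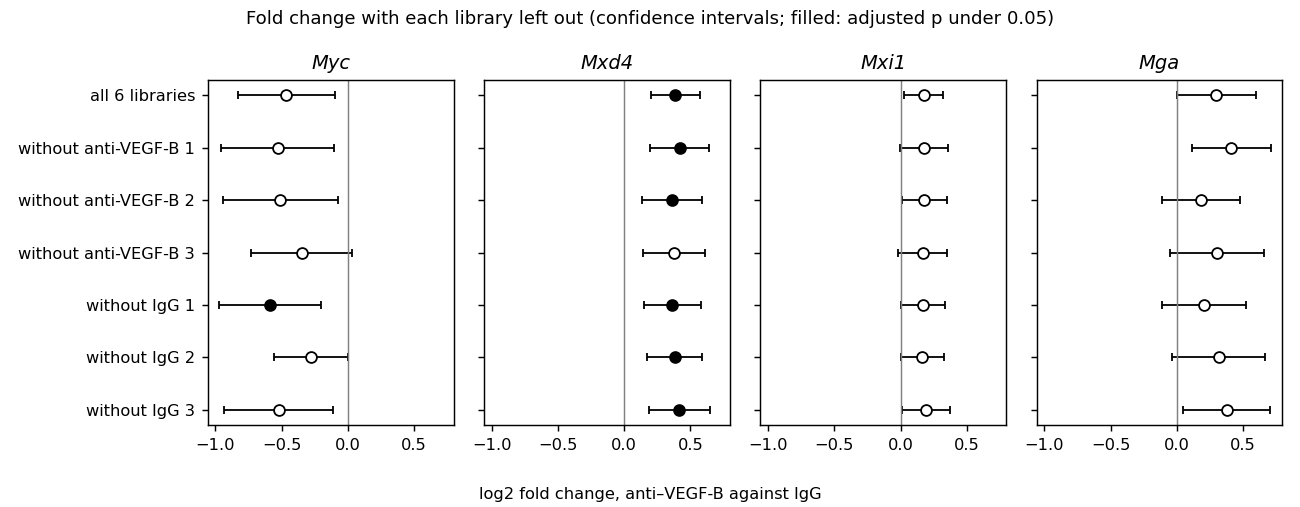
Log2 fold change of anti–VEGF-B against IgG (horizontal axis, shared) with its 95% interval for Myc, Mxd4, Mxi1 and Mga, with all 6 libraries and with each library left out (rows). Filled points mark an adjusted p under 0.05. Myc is filled only without IgG replicate 1 and lies closest to 0 without IgG replicate 2, Mxd4 is open only without anti–VEGF-B replicate 3, and Mxi1 and Mga are open throughout.

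The genes around the network were taken as 7 lists by role. They are described by their counts, set against 23.8% of all tested genes called as lower, 4.87% called as higher and a median of -0.15. These values hold for all 6 libraries with no scaling between them. The counts after scaling have other backgrounds among the 8816 genes tested. These were 913 lower and 880 higher after quantile normalization, 938 and 852 after cyclic loess normalization, and 807 and 1365 after median centring. The related MYC genes and the MLX branch, which pairs with some MXD proteins in place of MAX, had 3 of 5 genes in the table. Mycn was below the filter and Mlx did not pass the test (5.37 and 4.60 FPKM, adjusted p = 0.421 in limma). Mlxip, which encodes the glucose-responsive MLX partner MondoA, fell from 4.34 ± 0.243 to 2.28 ± 0.263 FPKM (SD, n = 3), with a log2 fold change of -0.71 (adjusted p = 0.00511 in limma), and kept its call with each library left out in turn. Mycl and Mlxipl were not analysed here.

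Of 19 genes for MYC cofactors, 6 fell (31.6%), 0 rose and 13 did not pass the test. The list's median was -0.16, close to that of all genes, and turned to 0.038 after median centring. At an unadjusted p under 0.05, 7 genes were lower and 1 was higher, against 35.2% and 7.96% of all tested genes. After quantile or cyclic loess normalization 1 gene was called as lower and 0 as higher, and after median centring 1 and 2. Ccnt1, which encodes the cyclin of the elongation kinase P-TEFb, fell from 17.1 ± 1.13 to 12.3 ± 0.735 FPKM (-0.44 on the log2 scale, adjusted p = 0.00981). Ruvbl1, for an ATPase of the TIP60 complex, had -0.48 (adjusted p = 0.0214), Hcfc1, for a chromatin adaptor, -0.38 (adjusted p = 0.0335), and Kat2a, for the acetyltransferase GCN5, -0.35 (adjusted p = 0.0309). Ccnt1 kept its call with each library left out in turn, while Ruvbl1 kept it in 2 of these 6 fits, Hcfc1 in 1 and Kat2a in 0. These last 3 were called under none of the 3 scalings. The list's count of 6 became 1 without anti–VEGF-B replicate 3 or IgG replicate 2, 2 without anti–VEGF-B replicate 2 or IgG replicate 3, 3 without anti–VEGF-B replicate 1 and 4 without IgG replicate 1.

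The 12 genes for corepressors of the MXD proteins and MNT moved in both directions, with 4 that fell (33.3%), 4 that rose (33.3%) and a median of -0.077, which turned to 0.060, 0.044 and 0.12 after quantile, cyclic loess and median scaling. The counts were then 2 lower and 4 higher, 2 and 4, and 2 and 5. Those that rose encode small subunits and a deacetylase of the SIN3 complex. Sap18 was at 49.4 ± 1.52 FPKM with anti–VEGF-B against 32.6 ± 1.51 FPKM with IgG (log2 fold change 0.59, adjusted p = 0.00469). Sap30 was at 573 ± 28.0 against 394 ± 44.7 FPKM (0.55, adjusted p = 0.00766), higher than any network gene. Ing2, for a histone reader of the complex, had 0.51 (adjusted p = 0.00665). Hdac1, for a deacetylase, fell from 39.7 ± 4.65 to 24.0 ± 1.35 FPKM (-0.70, adjusted p = 0.00491). All 4 kept their call with each library left out in turn and under each of the 3 scalings. The other genes that fell were Suds3, Rbbp7 and the scaffold gene Sin3a, and the other that rose was Hdac2, named here to complete the counts. Without anti–VEGF-B replicate 3, 1 gene of the list was called as lower and 3 as higher.

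Of 9 tested genes for the PRC1.6 complex, the Polycomb complex that holds MGA, 5 fell (55.6%) and 0 rose, with a median of -0.32. The median was -0.11, -0.083 and -0.12 after quantile, cyclic loess and median scaling, and 2 genes were called as lower under each, with 1 called as higher after median centring. At an unadjusted p under 0.05, 5 genes were lower and 1 was higher (Rybp, named here to complete the count), against 35.2% and 7.96% of all tested genes. Pcgf6, for the subunit that defines this complex, fell from 4.65 ± 0.451 to 2.67 ± 0.107 FPKM (-0.62 on the log2 scale, adjusted p = 0.00670). Tfdp1, for a partner of E2F6, had -0.69 (adjusted p = 0.0136). Ring1, for a ubiquitin ligase of histone H2A, had -0.44 (adjusted p = 0.0146), and Tfdp2 had -0.38 (adjusted p = 0.0270). Pcgf6 and Tfdp1 were called in each fit that left out a library and under each scaling, Ring1 in 5 and Tfdp2 in 1 of the 6 fits and both under no scaling. The 5th gene was L3mbtl2, added here to complete the count. The number called as lower was 2 without anti–VEGF-B replicate 3 and 3 without anti–VEGF-B replicate 1, anti–VEGF-B replicate 2 or IgG replicate 3, and 1 gene was called as higher without IgG replicate 1.

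Among 16 tested genes for kinases, ubiquitin ligases and deubiquitinases that act on the MYC protein, 4 fell (25%) and 0 rose, with a median of -0.13 that turned positive under the scalings (0.023 after quantile, 0.015 after cyclic loess and 0.069 after median scaling). At an unadjusted p under 0.05, 4 genes were lower and 0 higher, against 35.2% and 7.96% of all tested genes. The numbers called as lower were 1, 1 and 0 under these scalings, and 2 were called as higher after median centring. Gsk3a, for a kinase that marks MYC for degradation, differed by -0.33 on the log2 scale (adjusted p = 0.0224) and Fbxo28, for an F-box protein, by -0.39 (adjusted p = 0.0441). Also called was Aurka, for a mitotic kinase (-0.46, adjusted p = 0.0493), whose groups overlapped. Gsk3a kept its call in 4 of the 6 fits that left out a library and lost it after median centring. Fbxo28 kept its call in 1 of these 6 fits. Neither Fbxo28 nor Aurka was called under any scaling. Without anti–VEGF-B replicate 3, 0 genes of this list were called, against 1 without anti–VEGF-B replicate 1 or IgG replicate 2 and 2 without IgG replicate 1.

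Of 56 tested genes known to be activated by MYC, 21 fell (37.5%), 3 rose (5.36%) and 32 did not pass the test, with a median of -0.27. Counting any size of change, 39 of the 56 were below 0, against 71.2% of all tested genes. With an unadjusted p under 0.05 in limma, 28 were lower and 6 higher, against 35.2% and 7.96% of all tested genes. The groups did not overlap for 30 in the lower and 9 in the higher direction, against 38.5% and 10.5%. The median stayed below 0 after quantile (-0.10), cyclic loess (-0.12) and median scaling (-0.069), while the counts became 11 lower and 2 higher, 11 and 2, and 12 and 8. Slc1a5, for a glutamine carrier, fell from 17.1 ± 2.83 to 8.80 ± 0.614 FPKM (SD, n = 3), with a difference of -0.88 on the log2 scale (adjusted p = 0.00488 in limma). Nop56, for a core protein of small nucleolar RNPs, fell from 15.1 ± 1.87 to 9.15 ± 0.976 FPKM (-0.66, adjusted p = 0.00717). Rrs1, for a ribosome assembly factor, had -0.78 (adjusted p = 0.00511), and Gnl3, for the nucleolar GTPase nucleostemin, -0.45 (adjusted p = 0.00954). Ranbp1, for a regulator of nuclear transport, had -0.84 (adjusted p = 0.00907). Pprc1, for a coactivator of mitochondrial genes, had -0.69 (adjusted p = 0.00711), and Hspd1, for the mitochondrial chaperonin HSP60, -0.48 (adjusted p = 0.00607). Tfap4, for the transcription factor AP4, which sustains the programme MYC starts in activated T cells, went the other way and rose from 22.8 ± 2.64 to 36.7 ± 3.26 FPKM (0.67, adjusted p = 0.00566). The others that rose were Slc3a2, for a chain of amino acid carriers (0.33, adjusted p = 0.0257), and Eno1, for a glycolytic enzyme (0.24, adjusted p = 0.0435), named here to complete the count. The 8 genes from Slc1a5 to Tfap4 were called with each library left out in turn and under each of the 3 scalings. The list's count of 24 was 12 when anti–VEGF-B replicate 3 was left out, 13 for IgG replicate 2, 15 for anti–VEGF-B replicate 1 and 16 to 21 for the others. The number that rose was 1 without anti–VEGF-B replicate 1 or 2 and without IgG replicate 2 or 3.

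Of 10 tested genes known to be repressed by MYC, 2 fell (20%) and 3 rose (30%), with a median of 0.056. The list split evenly, with 5 of the 10 below 0, against 71.2% of all tested genes. After quantile, cyclic loess and median scaling, the list's median was 0.048, 0.053 and 0.26. That of all tested genes was 0.0077, 0.0019 and 0.049. The counts were then 3 lower and 3 higher, 3 and 4, and 1 and 5. Ndrg1, named for its repression by N-MYC, rose from 279 ± 9.85 to 348 ± 5.07 FPKM (0.32 on the log2 scale, adjusted p = 0.0125). Btg1, an antiproliferative gene, rose from 194 ± 14.3 to 244 ± 4.11 FPKM (0.33, adjusted p = 0.0155). Ccng2 was the other that rose, named here to complete the count. Ndrg2, a relative of Ndrg1, fell from 17.1 ± 2.01 to 11.5 ± 0.601 FPKM (-0.52, adjusted p = 0.00905). Gadd45b, a stress-induced gene, fell by 0.45 on the log2 scale (adjusted p = 0.0194). Ndrg2 kept its call with each library left out in turn and under each of the 3 scalings. Ndrg1 and Btg1 kept theirs in 5 of the 6 fits that left out a library, and Gadd45b in 4. Ndrg1 was called under each scaling, Btg1 not after quantile normalization and Gadd45b not after median centring. Without anti–VEGF-B replicate 3, 0 genes of the list were called as higher and 1 as lower, and without IgG replicate 2 the numbers were 2 and 1. Cdkn2b was not analysed here.

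**Figure D5:**
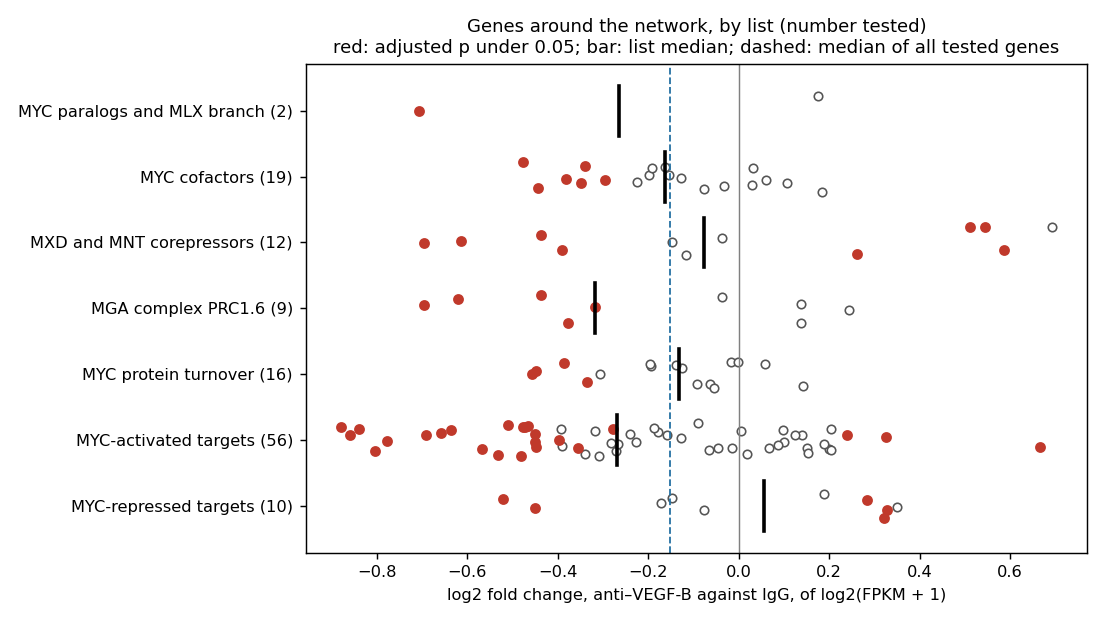
Log2 fold change of anti–VEGF-B against IgG (horizontal axis) for each tested gene of the 7 lists (rows, number tested in parentheses), in red where the adjusted p was under 0.05, with the list's median as a bar and the median of all tested genes as a dashed line. The bar of the MYC-activated targets (-0.27) and of the PRC1.6 complex (-0.32) lies below the dashed line (-0.15). That of the MYC-repressed targets (0.056) lies above 0, with 5 of the 10 genes below 0.

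The genes whose levels followed Myc most closely over the 6 libraries were ranked by the root mean square difference of log2(FPKM + 1) after each gene was centred on its own mean. The 5 nearest of all genes tested were Tgm2 (0.0407), Map3k14 (0.0464), Fhl3 (0.0507), Dkc1 (0.0507) and Tesk1 (0.0576). Tgm2, for a transglutaminase, was at 111, 105 and 86.7 FPKM with anti–VEGF-B and 109, 183 and 129 FPKM with IgG. Map3k14, for the NF-κB-inducing kinase, was at 4.63, 4.40 and 3.64 FPKM and at 5.29, 8.22 and 5.95 FPKM. Both were highest in IgG replicate 2 and lowest in anti–VEGF-B replicate 3, as Myc was, but they were chosen for their likeness to Myc. Those libraries also lay at the ends of the first principal component. Dkc1, for the nucleolar pseudouridine synthase dyskerin, is also on the list of MYC-activated targets. The likeness covers 6 libraries and includes the difference between the groups.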

How the data were processed

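RNA-Seq values of 6 libraries, 3 per treatment, were taken from 1 table. The authors aligned reads of stranded libraries with hisat2 to GRCm38 (mm10), quantified them with StringTie and Ballgown, and deposited FPKM of protein-coding genes, with no step between libraries stated. The methods speak of raw counts, but the table holds fractional values, which were treated as FPKM. Read depth is therefore unknown. Genes had to reach a mean of 1 FPKM, and their log2(FPKM + 1) entered limma 3.58.1 in R 4.3.3 (empirical Bayes with trend, all 6 libraries, no covariate), two-sided, with Benjamini-Hochberg adjustment over all genes tested and a threshold of 0.05. With 3 against 3 libraries, an exact permutation test of a single gene could not go below p = 0.1 and was not used.

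The members and the 7 lists, written by hand, were chosen with earlier results of these data known. The genes named were all members, from each list the called genes with groups that did not overlap (at most 4 with the lowest p, or 8 for MYC-activated targets), and the 5 genes nearest to Myc. Other names complete a count or describe single markers, and were chosen after their values were seen. Some genes that the rule names or that were counted are not reported here by name. The 14 alternative settings changed scaling, filter, pseudocount, moderation, the replicate block and the libraries included, and a call rule was also tried. Symbols were matched to a RefSeq gene table (GRCm38.p6), which also gave the older symbol under which Cip2a is listed. No sequences were used here.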

Additional observations from a re-analysis of the deposited data

How the results depend on the processing

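Of 7 members tested, 1 was called as higher and 0 as lower. The number called as higher was 2 after quantile or cyclic loess normalization, 5 after median centring, and 0 with no moderation or by a rule on fold change (log2 fold change beyond 0.5 either way and unadjusted p under 0.05). It was 0 to 1 with a library left out, and 0 to 1 members were then called as lower. Of the 8816 genes tested, 429 were called as higher with no scaling, 880 after quantile and 852 after cyclic loess normalization. After median centring 1365 were called as higher, and with no moderation 6. With a library left out, 164 to 396 genes were called as higher and 695 to 2071 as lower. The log2 fold change of Mnt turned from -0.18 to 0.018 after median centring, which shifts the fold change of every gene by the same amount. The median of all tested genes moved from -0.15 to 0.049 with it. All genes called numbered 2528 in all, 1331 with a filter at a mean of 5 FPKM (fewer genes tested), 12 with no moderation, 1121 by the rule on fold change, and 859 to 2467 with a library left out (859 for anti–VEGF-B replicate 3, 1359 for IgG replicate 2, 1679 for anti–VEGF-B replicate 1). MYC-activated targets called numbered 24, against 13 after quantile and 13 after cyclic loess normalization, 0 with no moderation, 12 by the rule on fold change, and 12 to 21 with a library left out. Called genes of the other 6 lists numbered 29, against 17 after quantile and 18 after cyclic loess normalization, 17 with the 5 FPKM filter, 0 with no moderation, 10 by the rule on fold change, and 9 to 25 with a library left out.

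Replicate numbers 1 to 3 occur in both groups, but the deviations of same-numbered libraries from their group means correlated at -0.030, 0.11 and 0.089, and not every library correlated best with its own number, so the numbers were not taken to pair the libraries. With the replicate block, 1 member was called as lower (Myc, adjusted p = 0.0406 in limma) and 1 as higher, with 2109 genes lower and 469 higher in all. The depth of the libraries is unknown, and 3 libraries per group limit every test.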
